A study of Mus musculus with 6 samples.

Results

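The cells described here are Pi16- and Dpt-expressing fibroblasts of the adventitial type, taken from 6 droplet single-cell RNA-seq libraries of female C3(1)-Tag mice (C3TAG in the labels). They were 1198 of 5715 Dcn-positive cells, of 22244 cells that passed quality filters and of 23835 deposited barcodes. All mice carried the SV40 large T antigen transgene, which the C3(1) promoter drives in mammary epithelium, on the FVB/NJ background named in the study's methods, and no library from mice without the transgene was analysed here. The 3 disease states had 2 libraries each: Prepuberty, the whole mammary gland at 5 weeks of age; DCIS (ductal carcinoma in situ), the whole gland at 14 weeks; and Tumor, a palpable tumour taken at over 18 weeks. The study's text describes the tumours as distinct from each other. The sources do not say for any state that the 2 libraries came from separate mice, and the study's text in 1 place calls them technical replicates. SEs and p-values here therefore measure only the spread between libraries, which may be technical.

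Adventitial fibroblasts lie in the connective tissue sheath around larger vessels and ducts and in fascia, outside the parenchymal stroma that surrounds the epithelium. In mouse tissues they are known for Pi16, Dpt, Cd34, Ly6a and Dpp4, and they are often described as a reserve from which more specialised fibroblasts can arise. They lay down collagen and elastic fibres, and they also secrete chemokines, complement factors and prostacyclin. Their signature proteins include peptidase inhibitor 16 (Pi16), the collagen-binding protein dermatopontin (Dpt), the lubricant proteoglycan 4 (Prg4) and prostacyclin synthase (Ptgis).

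Members were chosen by measured values in each cell. A cell with at least 200 genes and under 10% mitochondrial UMIs (unique molecular identifiers, 1 per captured transcript) was Dcn-positive if it had at least 2 UMIs of decorin (Dcn), a collagen-binding proteoglycan of fibroblasts, and none of Epcam, Ptprc or Pecam1. It was a member if at least 3 of the 6 genes Pi16, Dpt, Prg4, Ptgis, Fndc1 and Akr1c18 were detected and at most 2 of the 5 matrix genes Crabp1, Mmp11, Cthrc1, Spon1 and Lrrc15. The levels of these 15 genes, and every comparison of levels between members and the remaining Dcn-positive cells, are therefore a description without a test. Only the size of state differences was tested between these populations, as an interaction. Pi16 (ENSMUSG00000024011, chr17:29317680-29330593, mm10 build) was at 372 and 126 CPM in Prepuberty, 259.8 and 119 CPM in DCIS and 501 and 1399 CPM in Tumor, where CPM is the gene's summed UMIs per 1000000 summed UMIs of the members of a library. Dpt (ENSMUSG00000026574, chr1:164796644-164824266) was at 579.9 and 178 CPM in Prepuberty, 737 and 445 CPM in DCIS and 751 and 1410 CPM in Tumor. Both genes were detected in the members of every library, Pi16 in 51.7% (DCIS 2) to 90% (Tumor 2) of them and Dpt in 86.1% to 100%. Akr1c18, which inactivates progesterone, was at 131 and 136 CPM in Prepuberty, 62.5 and 266 CPM in DCIS and 19.3 and 0 CPM in Tumor, so that Tumor 2 held no UMI of it. The members of Tumor 1 all had Cthrc1, a matrix gene that the rule allows within its limit, at 1698 CPM. In the other Dcn-positive cells of Tumor 1 it was at 1525 CPM. Fndc1 was also no higher in these members, at 266 CPM against 310 CPM in the other cells. Pi16 and Dpt were at 136 and 217 CPM in those other cells, below the members. The matrix gene Lrrc15 was at 25.7 CPM in the members and 299 CPM in the other cells.

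Among Dcn-positive cells, 576 with exactly 3 of the 6 genes lay just inside the rule and 1042 with 2 of them just outside it, and 57 cells with 3 or more were left out for their matrix genes. Pi16 had a median over libraries of 163 CPM in the cells just inside and 34.3 CPM in those just outside. Cd34, which the rule did not use, had 162 and 125 CPM, and Ly6c1 had 450 and 360 CPM. The order was the reverse for Ly6c1 in DCIS 2 (369 inside, 428 outside) and Tumor 1 (344 and 422), and Cd34 was at 143 and 145 CPM in DCIS 2. The 57 cells left out had a median of 293 CPM of Pi16 but 2618 CPM of Postn, against 261 CPM of Postn in the cells just inside. The number of genes from the signature formed a continuous gradient, with 1489, 1814, 1157, 616, 410, 193 and 36 Dcn-positive cells at 0, 1, 2, 3, 4, 5 and 6 detected genes. In cells of other types, which were chosen to have no UMI of Dcn and so hold less free fibroblast RNA by choice, at least 3 of the genes were seen in 0% to 0.275% of endothelial cells, and in 0% of immune and of epithelial cells.

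Of the markers of other cell types, those of endothelium summed to 0 to 19.5 CPM in the members of a library. The macrophage list summed to 9.54 to 83.0 CPM and the B cell list to 0 to 3.21 CPM. Myoepithelial markers summed to 1.99 to 39.2 CPM, Schwann cell markers to 0 to 57.0 CPM and adipocyte markers to 0 to 8.93 CPM. Tumor 1 had the highest sum of several lists. Epithelial markers, with Epcam at 0 by the rule, summed to 99.5 CPM there and to 11.2 to 37.8 CPM elsewhere, and tenocyte markers to 22.5 CPM there and to 0.404 to 5.6 CPM elsewhere. The T cell list summed to 77.0 CPM there and to 0 to 3.11 CPM elsewhere, the pericyte list to 286 CPM there, almost all of it Acta2, against 13.3 to 20.4 CPM elsewhere, and the mesothelial list to 64.2 CPM, all of it Wt1, against 0 to 4.44 CPM. Their part in the Tumor results was not tested. The 7-gene fibroblast list summed to between 5087 and 10330 CPM in the 4 gland libraries and to 35682 and 35709 CPM in the Tumor libraries. In the other Dcn-positive cells it summed to 6861 to 12691 CPM in the glands, 35683 CPM in Tumor 1 and 9604 CPM in Tumor 2. Total UMIs of the members ranged from 178665 in Tumor 2 to 5021817 in Prepuberty 1, and the median per cell from 9028 to 12205, so the Tumor sums of 29 and 20 cells were by far the shallowest. T antigen was found in 3 of the 29 members of Tumor 1 and in no other member, but in 95 of the 202 other Dcn-positive cells of Tumor 2. Any 2 libraries shared 8 to 35 cell barcodes, and 1 member carried a shared barcode. By the labels every library had the same digestion and kit. By the methods of the study, glands were digested overnight with collagenase and hyaluronidase, and tumours were dissociated with a kit of their own. Tumor 2 also used a later library chemistry. Tissue dissociation and the Tumor state therefore cannot be told apart, for genes that were higher or lower in Tumor.

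Adventitial fibroblasts made up about 1 in 5 Dcn-positive cells of the gland before and during DCIS, and a widely differing share in the 2 tumours. They were 22.9% (exact 95% binomial interval 21.1 to 24.8) and 20.3% (18.4 to 22.4) in the Prepuberty libraries, 20.5% (17.2 to 24.1) and 20.2% (18.0 to 22.6) in the DCIS libraries, 30.9% (21.7 to 41.2) in Tumor 1 and 9.01% (5.59 to 13.6) in Tumor 2. These intervals cover counting error only. The intervals of the 4 gland libraries overlapped one another, and those of the 2 tumours did not. Means were 21.6% ± 1.81 (SD, n = 2) in Prepuberty, 20.4% ± 0.196 (SD, n = 2) in DCIS and 19.9% ± 15.4 (SD, n = 2) in Tumor. The two-sided exact permutation p was 0.667 for DCIS against Prepuberty and 1 for both Tumor comparisons, and 2 libraries against 2 cannot go below 0.333. Without the cells that had T antigen, the share was 31.7% (21.9 to 42.9) in Tumor 1 and 15.7% (9.89 to 23.3) in Tumor 2, and these intervals overlapped. Because the rule counts detected genes, cells were also thinned to 3000 UMIs each before it was applied, which left 11.2% and 5.48% for Prepuberty, 7.19% and 9.11% for DCIS, 26.3% for Tumor 1 and 9.18% for Tumor 2. After thinning, the intervals of the gland libraries no longer all overlapped, with 9.80 to 12.7 in Prepuberty 1 and 4.35 to 6.79 in Prepuberty 2. Of all kept cells of a library, the members were 10.5% and 9.38% in Prepuberty, 3.54% and 6.0% in DCIS and 0.648% and 0.767% in Tumor, an order that also depends on how many epithelial and immune cells each library held.

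**Figure D1:**
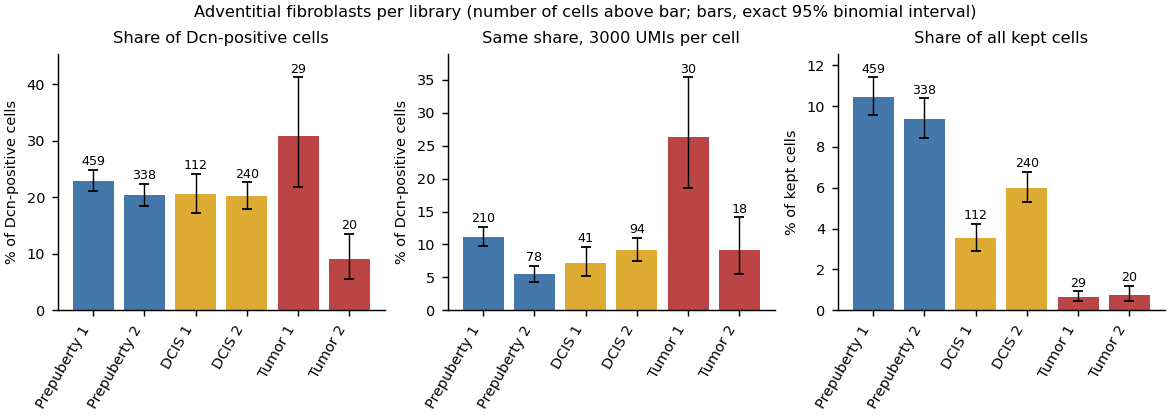
Share of adventitial fibroblasts per library among Dcn-positive cells (left), the same after thinning each cell to 3000 UMIs (middle) and among all kept cells (right); bars give percent, numbers the cells, whiskers the exact 95% binomial interval. The 4 gland libraries lie at 20.2% to 22.9% on the left, between Tumor 2 at 9.01% and Tumor 1 at 30.9%.

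Genes outside the rule that mark this fibroblast type in other tissues were mostly higher in the members than in the other Dcn-positive cells of the same library. Of 34 measured genes of the universal adventitial list, 17 were higher in all 6 libraries and none was lower in all, against 3.12% and 8.23% of all 11710 genes. Their median log2 ratio was 0.82, against -0.09 over all genes. Sema3c (ENSMUSG00000028780, chr5:17574281-17730268), a secreted axon guidance protein, was at 31.3 and 37.9 CPM in Prepuberty, 18.7 and 35.1 CPM in DCIS and 179.7 and 263 CPM in Tumor. In the other Dcn-positive cells it was at 3.26 and 15.8 CPM in Prepuberty, 2.97 and 10.5 CPM in DCIS and 39.6 and 28.8 CPM in Tumor. Dpp4, a dipeptidyl peptidase on the surface of fibroblast progenitors, was at 22.3 and 3.99 CPM in Prepuberty, 32.1 and 12.1 CPM in DCIS and 61.0 and 146 CPM in Tumor, against 2.13 and 1.27 CPM in Prepuberty, 5.35 and 3.23 CPM in DCIS and 20.6 and 1.82 CPM in Tumor in the other cells. Ly6c1 was at 728 and 487 CPM in Prepuberty, 571 and 449.9 CPM in DCIS and 1114 and 2009 CPM in Tumor, against 98.1 and 219 CPM in Prepuberty, 197 and 247 CPM in DCIS and 253 and 39.4 CPM in Tumor. Within every library the members had the higher value of all 3 genes, and the gap was widest in Tumor 2, where 95 of the 202 other cells had T antigen. Cd34, Anxa3, Mfap5, Pcolce2, Clec3b, Ackr3 and Cd55 were likewise higher in 6 of 6 libraries, while Ly6a was higher in 4.

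By the naming rule (at least 20 CPM in the higher population and the same direction in every library), the genes with the largest median ratios included Car8, a carbonic anhydrase-related protein (median log2 ratio 3.15), Duoxa1, a maturation factor of dual oxidase (2.31), Arhgap20 (2.29), the retinoic acid-forming Aldh1a3 (2.05), Cadm3 (1.84), and from the adventitial list Opcml (2.05) and Creb5 (1.84). Car8 stood at 29.7 and 74.1 CPM in Prepuberty, 23.2 and 27.4 CPM in DCIS and 3.21 and 11.2 CPM in Tumor in the members. In the other cells it was at 1.94 and 16.5 CPM in Prepuberty, 1.19 and 2.74 CPM in DCIS and 0 and 0 CPM in Tumor. In all, 8 genes, 0.0683% of those tested, were over 2-fold higher in every library, and 3 of them were Prg4, Ptgis and Pi16 of the rule itself. The other 5 were Car8, Duoxa1, Sema3c, Dpp4 and Vstm2b. For Car8 the Tumor ratios rest on 1 and 2 UMIs in the members and 0 in the other cells, and so on the pseudocount. Another 24 genes (0.205%) were over 2-fold lower in every library, among them Acta2, Tagln, Spp1, Rgs5 and the rule gene Crabp1. Contractile and tumour-associated genes lay on the other side. Of 30 such genes, 14 were lower in all 6 libraries and none was higher in all, with a median log2 ratio of -0.85. Osteopontin (Spp1) was at 53.4 and 2.22 CPM in Prepuberty, 8.93 and 4.44 CPM in DCIS and 176 and 33.6 CPM in Tumor in the members and at 235 and 76.3 CPM in Prepuberty, 871 and 187 CPM in DCIS and 2935 and 8364 CPM in Tumor in the other cells. The smooth muscle protein Tagln was at 4.18 and 7.10 CPM in Prepuberty, 7.14 and 9.28 CPM in DCIS and 392 and 0 CPM in Tumor against 35.4 and 32.9 CPM in Prepuberty, 74.7 and 55.4 CPM in DCIS and 1052 and 64.8 CPM in Tumor. Mmp13, a collagenase, Moxd1, Ifitm1 and Pla2g7 followed with median log2 ratios of -4.27, -2.85, -2.55 and -2.52. All of these were lower in 6 of 6 libraries. Other groups differed less: the median log2 ratio was -0.81 over 19 collagens, -0.46 over 29 parenchymal and adipogenic stromal genes, -0.50 over 18 proliferation genes, 0.30 over 13 complement genes and 0.28 over 23 retinoid, steroid and glutathione enzymes. It lay between -0.37 (growth factors) and 0.06 (Wnt, BMP and TGF-beta regulators) for the remaining lists. The rule excluded cells with 3 or more of the 5 matrix genes, so a lower level of further matrix genes in the members was not independent of the choice of cells.

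**Figure D2:**
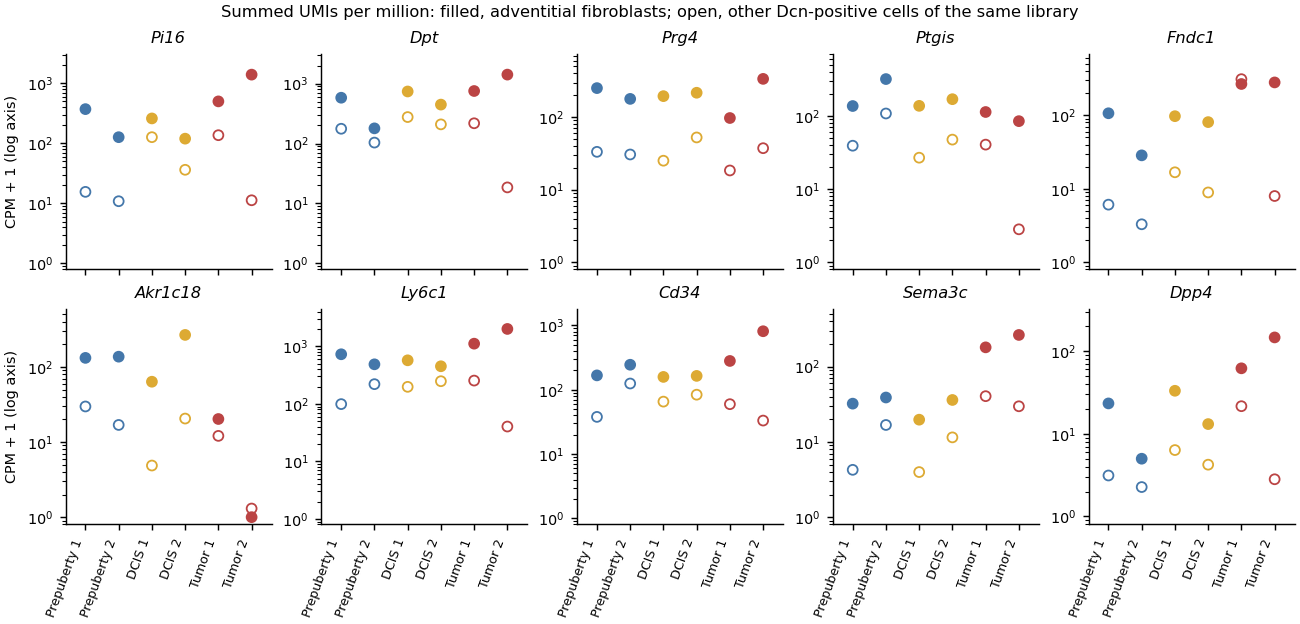
Level of 6 genes of the rule and 4 genes outside it in each library, as CPM plus 1 on a log axis; filled points are adventitial fibroblasts, open points the other Dcn-positive cells. Ly6c1, Cd34, Sema3c and Dpp4, which the rule did not use, are higher in the members in all 6 libraries.

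**Figure D3:**
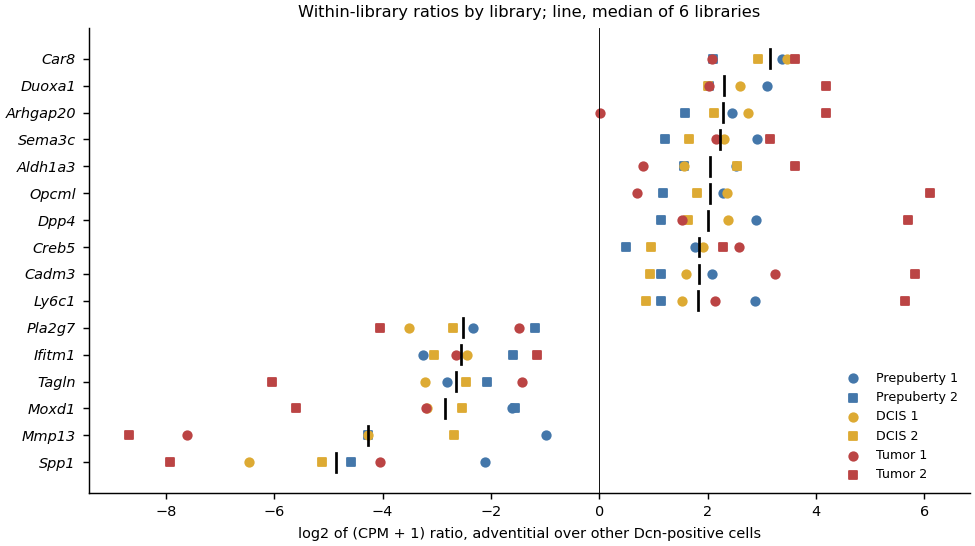
Within-library log2 ratio of CPM plus 1, adventitial fibroblasts over other Dcn-positive cells, for the 10 genes with the largest and the 6 with the smallest median ratio among genes outside the rule at 20 CPM or more and of 1 sign in every library; points are libraries and the line is the median of 6. Car8 has the highest median (3.15) and Spp1 the lowest (-4.85).

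In the tumours, some collagens, elastic fibre genes and Wnt regulators and Igf1 were higher in adventitial fibroblasts than in DCIS and Prepuberty, and some chemokines, glutathione enzymes and chaperones were lower. Most of these lists also held members that did not pass. With edgeR's quasi-likelihood test on sums per library, 699 of 9356 genes (7.47%) passed an adjusted p under 0.05 for Tumor against DCIS, of which 362 were higher in Tumor (3.87%) and 337 lower (3.6%). Against Prepuberty 648 passed (6.93%), 407 of them higher (4.35%) and 241 lower (2.58%). The Tumor libraries did not overlap those of DCIS for 57.1% of genes and those of Prepuberty for 53.2%. Both comparisons share the Tumor libraries. Both counts turned on single libraries: the first fell to 120 without DCIS 2, 392 without DCIS 1 and 369 without Tumor 2, and the second to 112 without Prepuberty 2, 394 without Prepuberty 1 and 391 without Tumor 2. The balance of directions moved too: 34 higher and 86 lower without DCIS 2, 239 and 419 without Tumor 1, and 219 and 150 without Tumor 2, all against DCIS. Against Prepuberty it was 64 higher and 48 lower without Prepuberty 2, 254 and 263 without Tumor 1, and 285 and 106 without Tumor 2. Of the 69 genes named below that passed against DCIS, 22 kept the call in every one of up to 18 alternative settings in which they were tested, and 40 lost it without DCIS 2, 20 without Tumor 1, 14 without Tumor 2 and 11 without DCIS 1. Against Prepuberty 24 of 67 kept it in every such setting, and 32 lost it without Prepuberty 2, 17 without Tumor 2, 16 without Tumor 1 and 14 without Prepuberty 1. Cd248, Fbn1, Col5a1, Heg1, Igf1, Sfrp1, Lrrc17, Procr, Cxcl5, Csf3, Gsta1, Gsta4 and Chchd10 were among those kept in each comparison. Fold changes come from the TMM-scaled fit, in which the median gene moved by -0.01 for Tumor against DCIS. On plain CPM, as levels are given here, it moved by 0.37.

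Collagens and elastic fibre genes had the highest list medians against DCIS. Against Prepuberty the Wnt, BMP and TGF-beta list had the highest, at 3.15. Of 17 tested collagens, 7 were higher in Tumor than in DCIS and none was lower, with a median log2 fold change of 2.44 against -0.01 over all genes, and 9 were higher than in Prepuberty (median 3.14). Type III collagen (Col3a1, ENSMUSG00000026043, chr1:45311538-45349706), which forms thin fibrils in vessel walls and loose connective tissue, was at 824 and 289.5 CPM in Prepuberty, 941 and 332 CPM in DCIS and 13847 and 17687 CPM in Tumor. Both tumours lay above all 4 gland libraries (log2 fold change 4.08 ± 0.70 (SE), adjusted p = 0.0117 against DCIS). It was detected in 100% of the members of both tumours and in 28.3% to 75.4% of those of the glands, while immune cells of the same libraries had it in 0% to 23.1% (the highest being 3 of 13 cells), at a lower depth of 3022 to 8529 median UMIs. These immune cells were chosen to have no UMI of Dcn, so they give a low estimate of free fibroblast RNA here and below. Col1a1, the main chain of type I collagen, was at 391 and 129 CPM in Prepuberty, 567 and 155 CPM in DCIS and 6848 and 4159 CPM in Tumor (log2 fold change 3.44 ± 0.78 (SE), adjusted p = 0.0309). Col5a1, which limits fibril diameter, was at 39.6 and 24.4 CPM in Prepuberty, 40.2 and 16.9 CPM in DCIS and 623 and 739 CPM in Tumor (log2 fold change 4.08 ± 0.55 (SE), adjusted p = 0.00628). For each of these 3 collagens the 2 tumours were within 2-fold of each other.

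Of 17 elastic fibre and microfibril genes, 9 were higher in Tumor than in DCIS and none was lower (median 2.43), and 10 were higher than in Prepuberty (median 2.45). Fibrillin 1 (Fbn1, ENSMUSG00000027204, chr2:125300594-125507993), the backbone of microfibrils, was at 72.3 and 41.9 CPM in Prepuberty, 67.0 and 28.6 CPM in DCIS and 1101 and 1377 CPM in Tumor (log2 fold change 4.17 ± 0.57 (SE), adjusted p = 0.00628). Elastin (Eln, ENSMUSG00000029675, chr5:134702593-134747323) was at 23.3 and 7.54 CPM in Prepuberty, 41.1 and 9.28 CPM in DCIS and 439.6 and 1634 CPM in Tumor (log2 fold change 4.79 ± 0.89 (SE), adjusted p = 0.0166), and its level was higher in Tumor 2 than in Tumor 1. Fbn2, a fibrillin of developing tissue, had 0 UMIs in both DCIS sums and was at least 95.4-fold higher in Tumor, with 99.5 and 44.8 CPM. The bound sets the empty sums at 3 UMIs, and it was 53.7-fold without Tumor 1 and 29.7-fold without DCIS 2. Lysyl oxidase (Lox), a cross-linking enzyme from the tumour-associated list, was at 43.4 and 11.8 CPM in Prepuberty, 62.5 and 48.0 CPM in DCIS and 716 and 582 CPM in Tumor (log2 fold change 3.07 ± 0.63 (SE), adjusted p = 0.0235). Loxl1, which cross-links elastin, was at 123 and 150.4 CPM in Prepuberty, 102 and 80.3 CPM in DCIS and 764 and 610.1 CPM in Tumor (log2 fold change 2.43 ± 0.42 (SE), adjusted p = 0.0119). Loxl4, the other lysyl oxidase of the elastic fibre list, had 3 UMIs in the Tumor sums and 2 in the DCIS sums and was not tested. Ltbp1, which tethers latent TGF-beta to microfibrils, was at 23.3 and 10.6 CPM in Prepuberty, 16.1 and 15.7 CPM in DCIS and 93.1 and 174 CPM in Tumor (log2 fold change 2.50 ± 0.52 (SE), adjusted p = 0.0241). Among 14 proteoglycan and hyaluronan genes, 4 passed against DCIS, all higher (Podn, Aspn, Has1 and Has2; median 1.60), and 5 against Prepuberty (Aspn, Podn, Bgn, Has2 and Vcan; median 2.04). The hyaluronan synthase Has2 passed narrowly against DCIS (adjusted p = 0.0482) and lost its call when any 1 of the 6 libraries was left out, with adjusted p of up to 0.279 without Tumor 2.

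The rule limited how many of 5 matrix genes a member could have, but not their level. Of 28 tested genes on the list of tumour-associated and contractile fibroblast genes, 10 were higher in Tumor than in DCIS (Lox, Aspn, Loxl2, Col8a1, Myl9, Fn1, S100a4, Itgb5, Postn and Wisp1) and 1, Pdpn, was lower, with a median of 2.25. Against Prepuberty 12 were higher and Pdpn was lower (median 2.73). Fibronectin (Fn1) was at 569.5 and 151 CPM in Prepuberty, 442 and 361 CPM in DCIS and 4332 and 3095 CPM in Tumor (log2 fold change 2.73 ± 0.65 (SE), adjusted p = 0.0352). Periostin (Postn) was at 253 and 54.1 CPM in Prepuberty, 146 and 79.1 CPM in DCIS and 1560 and 968 CPM in Tumor (log2 fold change 3.01 ± 0.75 (SE), adjusted p = 0.0403). In the other Dcn-positive cells Postn was at 1009 and 66.4 CPM in Prepuberty, 1087 and 443 CPM in DCIS and 3147 and 488 CPM in Tumor. The smooth muscle actin gene Acta2 did not pass: it was at 279 and 0 CPM in Tumor 1 and Tumor 2 and at 8.43 to 13.1 CPM in the glands (log2 fold change 3.58 ± 1.11 (SE), adjusted p = 0.0787). Podoplanin (Pdpn), a surface glycoprotein of lymphatic endothelium and of activated fibroblasts, was at 616 and 778 CPM in Prepuberty, 812 and 636 CPM in DCIS and 263 and 297 CPM in Tumor (log2 fold change -1.89 ± 0.40 (SE), adjusted p = 0.0256).

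Members of every library, Tumor included, were chosen for detecting at least 3 adventitial genes, so the level of other genes of that type in the tumours was not independent of the choice of cells. Of 32 tested list members outside the rule, 7 were higher in Tumor than in DCIS (Cd248, Heg1, Fbn1, Sema3c, Col14a1, Gap43 and Has1) and 2 lower (Procr and Uchl1), with a median of 1.38. Against Prepuberty 9 were higher and the same 2 were lower (median 1.49). Endosialin (Cd248, ENSMUSG00000056481, chr19:5068078-5070682), a surface glycoprotein of stromal progenitors, was at 11 and 8.87 CPM in Prepuberty, 7.14 and 8.88 CPM in DCIS and 347 and 694 CPM in Tumor (log2 fold change 5.43 ± 0.48 (SE), adjusted p = 0.00221). Both tumours were far above all 4 glands. It was detected in 86.2% and 95% of the Tumor members, in 4.58% to 9.15% of the gland members and in 0% of the immune cells of all 6 libraries. Heg1, a transmembrane partner of endothelial junction proteins, was at 13.9 and 13.8 CPM in Prepuberty, 15.2 and 9.28 CPM in DCIS and 170.1 and 437 CPM in Tumor (log2 fold change 4.08 ± 0.50 (SE), adjusted p = 0.00576). Procr (ENSMUSG00000027611, chr2:155751117-155755471), the receptor of protein C and a marker of several progenitor populations, was at 513 and 195 CPM in Prepuberty, 1405 and 1075 CPM in DCIS and 32.1 and 22.4 CPM in Tumor (log2 fold change -5.96 ± 0.69 (SE), adjusted p = 0.00516). The tumours lay below all 4 glands. Ly6a did not pass at 3127 and 2948 CPM in Prepuberty, 2356 and 2199 CPM in DCIS and 2352 and 5351 CPM in Tumor (log2 fold change 0.18 ± 0.42 (SE), adjusted p = 0.826). Cd34 did not pass either, at 166 and 244 CPM in Prepuberty, 157 and 163 CPM in DCIS and 279 and 812 CPM in Tumor (log2 fold change 1.17 ± 0.46 (SE), adjusted p = 0.145).

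Wnt, BMP and TGF-beta regulators formed another group with calls in 1 direction. Of 23 tested, 7 were higher in Tumor than in DCIS and 13 than in Prepuberty, none was lower, and the medians were 1.75 and 3.15. Sfrp1, a secreted inhibitor of Wnt, was at 13.7 and 5.32 CPM in Prepuberty, 37.5 and 8.07 CPM in DCIS and 764 and 1097 CPM in Tumor (log2 fold change 4.86 ± 0.77 (SE), adjusted p = 0.00970). The related Sfrp2 was at 30.5 and 13.8 CPM in Prepuberty, 50.0 and 10.1 CPM in DCIS and 1842 and 448 CPM in Tumor (log2 fold change 4.88 ± 0.98 (SE), adjusted p = 0.0220). Tgfbr2, the ligand-binding receptor of TGF-beta, was at 46.0 and 32.4 CPM in Prepuberty, 52.7 and 46.8 CPM in DCIS and 546 and 1119 CPM in Tumor (log2 fold change 3.50 ± 0.46 (SE), adjusted p = 0.00628). Dkk2, Tgfb3, Wnt5a and Bmp4 passed in both comparisons. Sfrp4 was at 38.2 and 10.6 CPM in Prepuberty, 359.8 and 69.8 CPM in DCIS and 539 and 1013 CPM in Tumor and passed against Prepuberty only (adjusted p = 0.0175, against 0.337 for DCIS), a contrast between calls that was not tested.

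Most growth factors did not pass, and those that did were mostly higher in Tumor. Of 27 tested, 6 were higher in Tumor than in DCIS (Igf1, Vegfd, Gas6, Fgf18, H19 and Fgf2) and 1 lower, with a median of 0.39, and 7 were higher and 1 lower than in Prepuberty (median 1.24). Insulin-like growth factor 1 (Igf1, ENSMUSG00000020053, chr10:87858265-87937042) was at 9.16 and 18.4 CPM in Prepuberty, 64.3 and 16.5 CPM in DCIS and 940.3 and 1019 CPM in Tumor (log2 fold change 4.10 ± 0.66 (SE), adjusted p = 0.0101). Gas6, ligand of the Axl and Mer receptors, was at 8.56 and 15.8 CPM in Prepuberty, 47.3 and 12.1 CPM in DCIS and 263 and 1920 CPM in Tumor (log2 fold change 4.58 ± 0.91 (SE), adjusted p = 0.0215), and differed more between the 2 tumours than Igf1 did. Fgf18 and the imprinted transcript H19 had 0 UMIs in both DCIS sums and were at least 48.9-fold higher and at least 58.7-fold higher, nearly all of it from Tumor 1, with 61.0 and 73.8 CPM against 5.6 CPM of each in Tumor 2. Without DCIS 2 the bounds were 15.2-fold and 18.3-fold, and without Tumor 1 no bound could be given for either.

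Over all genes, those named for the largest increases against DCIS were Fbn2, 1500015O10Rik, Lrrc17, Rasl11a, Epha3, Hmcn1, Cd59a and Tmem100, and against Prepuberty 1500015O10Rik, Abcc9, Lrrc17, C1qtnf3, Cmah, Sfrp1, Fbn2 and Kcnj8. Fbn2 and Sfrp1 are list members described above. Lrrc17 (ENSMUSG00000039883, chr5:21543559-21575904), a secreted leucine-rich repeat protein, was at 1.79 and 1.11 CPM in Prepuberty, 0.893 and 2.02 CPM in DCIS and 186 and 274 CPM in Tumor (log2 fold change 6.57 ± 0.54 (SE), adjusted p = 0.00221). Tmem100 was at 1.79 and 3.33 CPM in Prepuberty, 3.57 and 1.61 CPM in DCIS and 122 and 213 CPM in Tumor (log2 fold change 5.59 ± 0.56 (SE), adjusted p = 0.00369). Both were near the limit of detection in every gland and above 100 CPM in both tumours. 1500015O10Rik, in contrast, was at 417 and 11.2 CPM in Tumor 1 and Tumor 2, and Cd59a at 109 and 11.2 CPM, so their means rested on Tumor 1.

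Immediate early genes, which answer to growth signals within minutes and also to tissue dissociation, were higher in Tumor for 5 of 22 against DCIS (Fosb, Klf4, Egr1, Fos and Jund; median 0.92) and 7 against Prepuberty (median 1.74). Fos was at 41.2 and 116 CPM in Prepuberty, 109 and 35.5 CPM in DCIS and 1473 and 453 CPM in Tumor (log2 fold change 3.32 ± 0.80 (SE), adjusted p = 0.0365). Fosb was at 11.9 and 33.5 CPM in Prepuberty, 15.2 and 12.1 CPM in DCIS and 786 and 201 CPM in Tumor (log2 fold change 4.79 ± 0.79 (SE), adjusted p = 0.0105). Fos was detected in 16.7% to 47.6% of the gland members and 82.8% and 70% of the Tumor members, and in 12.1% to 52.0% and 59.4% and 64.4% of the immune cells of the same libraries. Fosb was detected in 6.25% to 24.0% of the gland members and 93.1% and 55% of the Tumor members. In the immune cells it was detected in 0% to 6.12% in the glands and in 47.1% and 30.4% in the tumours. The part of the dissociation method in these values was not tested.

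**Figure D4:**
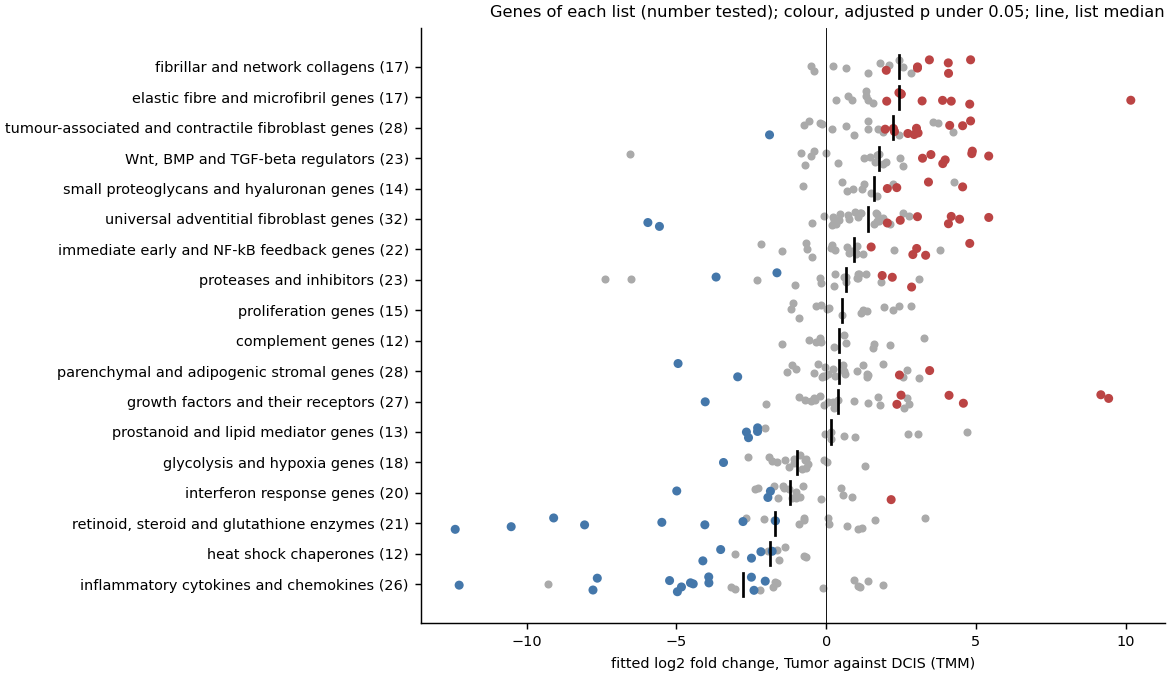
Fitted log2 fold change, Tumor against DCIS, of every tested gene of the 18 lists in adventitial fibroblasts; coloured points pass an adjusted p under 0.05 (red higher, blue lower), the line is the list's median, and values of genes with 0 UMIs in a state depend on the fit and are no bound. Collagens and elastic fibre genes lie at the top with medians of 2.44 and 2.43, and cytokines and chemokines at the bottom with -2.78.

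Of 26 tested inflammatory cytokines and chemokines, 13 were lower in Tumor than in DCIS and none was higher (median -2.78, or -2.46 with empty sums at their bound). Against Prepuberty 8 were lower and Cxcl14 was higher (median -2.21, or -2.11 with bounds). Cxcl5 (ENSMUSG00000029371, chr5:90759360-90761624), a neutrophil chemoattractant, was at 2451 and 4682 CPM in Prepuberty, 803 and 1748 CPM in DCIS and 12.8 and 0 CPM in Tumor (log2 fold change -7.79 ± 0.87 (SE), adjusted p = 0.00516). Csf3 (ENSMUSG00000038067, chr11:98701263-98703629), the granulocyte growth factor, was at 135 and 140.0 CPM in Prepuberty, 143 and 322 CPM in DCIS and 0 and 0 CPM in Tumor. With no UMI in either tumour it was at least 43.6-fold lower than in DCIS. This limit was 15.9-fold without Tumor 1, 27.7-fold without Tumor 2 and 23.3-fold without DCIS 2. Both tumours were thus below every gland for both genes. Csf1, the macrophage growth factor, was at 365 and 692 CPM in Prepuberty, 507 and 519 CPM in DCIS and 109 and 174 CPM in Tumor (log2 fold change -2.41 ± 0.44 (SE), adjusted p = 0.0157). Il1rl1, the receptor of interleukin 33, was at 979.7 and 942 CPM in Prepuberty, 767 and 847 CPM in DCIS and 125 and 5.6 CPM in Tumor (log2 fold change -3.92 ± 0.85 (SE), adjusted p = 0.0272). Tslp, with 3 UMIs in the tumours, was 19.7-fold lower (95% counting interval 6.68 to 95.7) than in DCIS, or 10.7-fold without Tumor 1, 37.5-fold without Tumor 2 and 31.2-fold without DCIS 2. Cxcl5 was detected in 41.1% to 83.4% of gland members and 10.3% and 0% of Tumor members (0 of 20 in Tumor 2, which allows a share of up to 15% of cells with a UMI), and in 12.2% to 23.1% and 0.645% and 1.55% of immune cells. The acute phase gene Saa3 was at 1941 and 3404 CPM in Prepuberty, 2164 and 4230 CPM in DCIS and 0 and 56.0 CPM in Tumor. The share of DCIS members with a UMI of it, 34.8% and 43.3%, was close to that of immune cells, 32.7% and 44.0%. In Prepuberty it was 73.6% and 51.8% in members and 46.2% and 27.3% in immune cells, which were shallower. With cells thinned to 3000 UMIs it was 44.1% and 26.6% in members against 44.4% (of 9 cells) and 17.6% in immune cells. Whether free RNA in the droplets gives these shares was not tested. Saa3 is counted among the 13 lower genes, but no fold is given for it.

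The 2 tumours differed widely in the level of the chemokines Cxcl1 and Ccl2. Cxcl1 was at 3034 and 3638 CPM in Prepuberty, 10731 and 8959 CPM in DCIS and 3013 and 0 CPM in Tumor. Ccl2, a monocyte chemoattractant, was at 9620 and 14076 CPM in Prepuberty, 12952 and 6020 CPM in DCIS and 2696 and 0 CPM in Tumor. Tumor 1 lay below the lowest gland library for both genes, by little for Cxcl1, and Tumor 2 had no UMI of either. Neither gene passed against DCIS (adjusted p = 0.227 and 0.217). Cxcl2, at 586 and 915 CPM in Prepuberty, 4757 and 2675 CPM in DCIS and 247 and 0 CPM in Tumor, did pass (log2 fold change -5.23 ± 1.19 (SE), adjusted p = 0.0314). Il33, an alarmin, was at 121 and 75 CPM in Prepuberty, 481 and 190.5 CPM in DCIS and 369 and 549 CPM in Tumor. Cxcl12 was at 27.3 and 106 CPM in Prepuberty, 89.3 and 100.5 CPM in DCIS and 148 and 957 CPM in Tumor, and neither gene passed (adjusted p = 0.925 and 0.147 against DCIS). In the other Dcn-positive cells Cxcl1 was at 1581 and 3144 CPM in Prepuberty, 7652 and 6168 CPM in DCIS and 1182 and 145 CPM in Tumor.

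Promoters of such genes are often bound by NF-kB factors, so the 250 bases before each RefSeq start (GRCm38.p6) were searched on both strands for GGNNTTTCC, a form chosen after several had been tried. It matched in 7 of the 19 list members that the promoter table held, and in 4.93% of 32851 windows of the same length. Of the 13 genes lower in Tumor than in DCIS, 9 were in the table and 4 had a match: Csf1, Cxcl10, Cxcl2 and Saa3. Csf3 and Cxcl5 were not in the table. The other matches were in Cxcl1, Cxcl9 and Il6. Cxcl2 and Cxcl1 each had 2 matches, and the second of each lies in lower case within the stretch printed below. The first match of each of 4 genes is printed on the gene's own strand, in capitals with 30 bases on each side, so that genes that passed (Csf1, Cxcl2, Saa3) can be set beside 1 that did not (Cxcl1). They lie at chr3:107760585-107760653 (minus strand), chr5:90903773-90903841 (plus), chr7:46715825-46715893 (minus) and chr5:90891126-90891194 (plus), in the order printed:
Csf1: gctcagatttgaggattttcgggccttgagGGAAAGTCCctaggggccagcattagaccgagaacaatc
Cxcl2: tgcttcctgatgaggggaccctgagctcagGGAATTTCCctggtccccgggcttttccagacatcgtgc
Saa3: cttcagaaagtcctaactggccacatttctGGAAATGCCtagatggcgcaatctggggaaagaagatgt
Cxcl1: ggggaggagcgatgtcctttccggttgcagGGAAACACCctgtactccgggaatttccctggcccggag

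In the list of 21 retinoid, steroid and glutathione enzymes, 8 were lower in Tumor than in DCIS (Gsta4, Gsta1, Nqo1, Txnrd1, Srxn1, Gsta3, Hmox1 and the retinol carrier Rbp4), none was higher and 13 did not pass, with a median of -1.69. Against Prepuberty 7 were lower and 1 was higher (median -0.51). Gsta4, a glutathione transferase that detoxifies lipid peroxidation products, was at 273 and 479.8 CPM in Prepuberty, 165 and 648 CPM in DCIS and 3.21 and 0 CPM in Tumor, and with 1 UMI in the tumours was 244-fold lower (95% counting interval 43.8 to 9649) than in DCIS. It was 81.0-fold lower without DCIS 2, 155-fold without Tumor 2 and, with no UMI left, at least 29.7-fold without Tumor 1. The ratio of 1 UMI cannot be ranked against the limits given for genes with none. Gsta1 (ENSMUSG00000074183, chr9:78230656-78242684) was at 162 and 557 CPM in Prepuberty, 117 and 395 CPM in DCIS and 0 and 0 CPM in Tumor, at least 50.4-fold lower in Tumor than in DCIS. This limit was 19.1-fold without DCIS 2, 18.4-fold without Tumor 1 and 32.0-fold without Tumor 2. Its reads may be shared with the near-identical Gsta2 and Gm3776, which were also at 0 in both tumours. Srxn1, which reactivates peroxiredoxins, was at 560.0 and 439 CPM in Prepuberty, 309 and 846 CPM in DCIS and 70.6 and 16.8 CPM in Tumor (log2 fold change -4.05 ± 0.73 (SE), adjusted p = 0.0144). Heme oxygenase 1 (Hmox1) was at 1330 and 1161 CPM in Prepuberty, 1238 and 3561 CPM in DCIS and 128 and 0 CPM in Tumor (log2 fold change -5.49 ± 1.12 (SE), adjusted p = 0.0228). Thioredoxin reductase (Txnrd1) was at 219 and 394 CPM in Prepuberty, 195 and 345 CPM in DCIS and 54.6 and 56.0 CPM in Tumor (log2 fold change -2.78 ± 0.49 (SE), adjusted p = 0.0132). The cystine transporter Slc7a11, outside the list, was at 161 and 143 CPM in Prepuberty, 74.1 and 290.1 CPM in DCIS and 0 and 0 CPM in Tumor. With cells thinned to 3000 UMIs, 32.2% and 30.1% of members in Prepuberty and 18.2% and 43.7% in DCIS had a UMI of it, against 33.3% (of 9 cells) and 11.8%, and 27.9% and 60.9%, of immune cells (unthinned 56.9%, 56.2%, 30.4% and 74.2% against 38.5%, 6.06%, 38.8% and 68%). In both DCIS libraries the thinned share was lower in members than in immune cells, so no fold is given. Whether immune cells express Slc7a11 or hold it as free RNA was not tested. Gsta4, Gsta1, Srxn1, Hmox1, Txnrd1 and Slc7a11 are known targets of the NRF2 stress factor. Its core sequence, searched as TGACNNNGC, matched 3 of the 16 list members in the promoter table (Gsta3, Hsd11b1 and Txnrd1) and 10.2% of all windows, and 2 of the 6 lower genes in the table:
Gsta3: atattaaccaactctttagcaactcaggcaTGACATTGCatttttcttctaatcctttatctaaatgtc
Txnrd1: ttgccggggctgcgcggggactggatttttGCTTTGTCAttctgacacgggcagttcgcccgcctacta

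These lie at chr1:21240434-21240502 and chr10:82859084-82859152, both on the plus strand, with the match in capitals. The gene with the strongest bound was Chchd10 (ENSMUSG00000049422, chr10:75933130-75937747), a protein of the mitochondrial intermembrane space, which was at 405 and 127 CPM in Prepuberty, 490.1 and 678 CPM in DCIS and 0 and 0 CPM in Tumor and at least 101-fold lower in Tumor than in DCIS (36.9-fold without Tumor 1 and 64.4-fold without Tumor 2). In the other Dcn-positive cells it was at 275 and 252 CPM in Prepuberty, 697 and 764 CPM in DCIS and 4.75 and 3.03 CPM in Tumor. Gdf15, a stress cytokine, and Ankrd33b were at 0 in both tumours, at least 17.3-fold lower and at least 24.1-fold lower than in DCIS (6.32-fold and 8.79-fold without Tumor 1, and 11-fold and 15.3-fold without Tumor 2).

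Heat shock chaperones were lower for 5 of 12 against DCIS (Hsph1, Hspe1, Hspd1, Hspa1b and Hsp90aa1; median -1.87) and for 3 against Prepuberty (median -0.67). Hsph1 was at 96.8 and 79.4 CPM in Prepuberty, 117 and 135 CPM in DCIS and 12.8 and 5.6 CPM in Tumor (log2 fold change -4.12 ± 0.55 (SE), adjusted p = 0.00628). The mitochondrial co-chaperonin Hspe1 was at 1406 and 1213 CPM in Prepuberty, 1589 and 1581 CPM in DCIS and 427 and 364 CPM in Tumor (log2 fold change -2.50 ± 0.42 (SE), adjusted p = 0.0111). Of 13 prostanoid genes, 4 were lower than in DCIS (Ptges, Ptges3, Pla2g4a and Ptgs2; median 0.16) and 1 than in Prepuberty (Ptges3; median -0.14). The inducible cyclooxygenase Ptgs2 was at 60.5 and 37.3 CPM in Prepuberty, 221 and 248 CPM in DCIS and 80.2 and 11.2 CPM in Tumor (log2 fold change -2.66 ± 0.67 (SE), adjusted p = 0.0414). Prostaglandin E synthase (Ptges) was at 156 and 215 CPM in Prepuberty, 366 and 259 CPM in DCIS and 57.8 and 95.2 CPM in Tumor (log2 fold change -2.60 ± 0.44 (SE), adjusted p = 0.0111). Of 20 interferon response genes, 3 were lower (Rsad2, Isg15 and Bst2) and Ifi27l2a was higher than in DCIS (median -1.19), and 6 were lower than in Prepuberty (median -1.30). Isg15, a ubiquitin-like modifier, was at 1337 and 686 CPM in Prepuberty, 665 and 489 CPM in DCIS and 167 and 274 CPM in Tumor (log2 fold change -1.95 ± 0.49 (SE), adjusted p = 0.0408). Over the alternatives the adjusted p against DCIS reached 0.325 for Bst2, 0.168 for Isg15 and 0.131 for Rsad2.

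No complement gene of 12 passed against DCIS (median 0.42), and 5 were higher than in Prepuberty (among them C4b, Masp1, Cd55 and C2; median 1.22). C4b was at 49.4 and 59.2 CPM in Prepuberty, 219.6 and 91.2 CPM in DCIS and 395 and 996 CPM in Tumor (log2 fold change 3.37 ± 0.56 (SE), adjusted p = 0.0104 against Prepuberty). Of 23 proteases and inhibitors, Adamts2, Adamts5 and Mmp23 were higher and Mmp3 and Ctsk lower than in DCIS (median 0.66), and against Prepuberty 3 were higher and 1 lower (median 1.04). The stromelysin Mmp3 was at 2033 and 670.4 CPM in Prepuberty, 3223 and 2477 CPM in DCIS and 157 and 526 CPM in Tumor (log2 fold change -3.68 ± 0.69 (SE), adjusted p = 0.0167). Of 28 parenchymal and adipogenic genes, Lama4 and Aoc3 were higher and Fabp4 and Icam1 lower (median 0.42), and against Prepuberty 4 were higher and 1 lower (median 1.04). None of 15 proliferation genes passed against either state (medians 0.53, or 0.08 with bounds, and -0.20), and of 18 glycolysis and hypoxia genes only Adm, adrenomedullin, was lower than in DCIS (median -0.97) and none passed against Prepuberty (median -0.98). Mki67 was found in 0 of 29 and 1 of 20 Tumor members, and in 12 of 459, 1 of 338, 4 of 112 and 1 of 240 gland members.

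**Figure D5:**
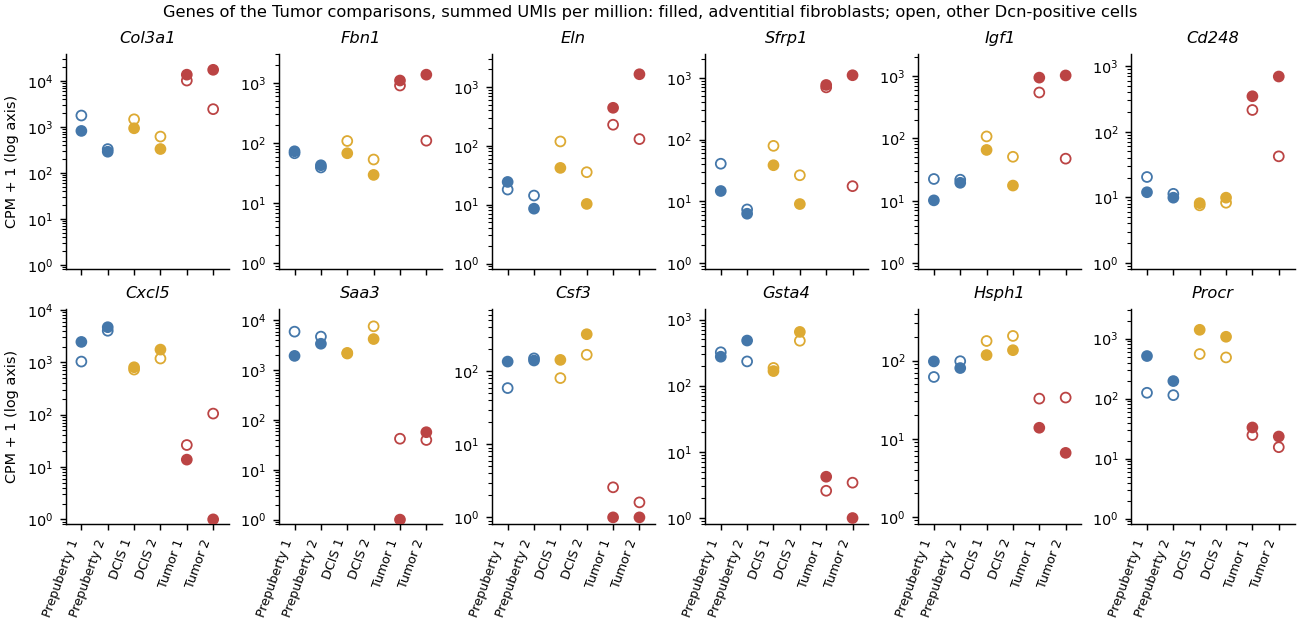
Level of 12 genes of the Tumor comparisons in each library, as CPM plus 1 on a log axis; filled points are adventitial fibroblasts, open points the other Dcn-positive cells. In the members both tumours lie above the 4 glands for the 6 upper genes and below them for the 6 lower genes.

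Between Prepuberty and DCIS no gene of 9356 passed (0%) with edgeR, and 800 had an unadjusted p under 0.05 (8.55%). DESeq2 called 24. No member of the 18 lists passed, and the median of the universal adventitial list was 0.44 against -0.02 over all genes. The genes of smallest p that were higher in both DCIS libraries were 5430416N02Rik, Hspa1b, Srgn and Ankrd33b, and those that were lower were Id1, Snai1, Hmga2 and Nqo2, with adjusted p from 0.355 to 0.427. Of these 8 genes 5 passed with DESeq2, 5 with no filter on low counts and 2 with the replicate block, and the lowest adjusted p over all alternatives was 0.00236 (Hspa1b, Srgn and Ankrd33b). Id1, an inhibitor of bHLH factors and a target of BMP signals, was at 98.6 and 209.6 CPM in Prepuberty, 5.36 and 10.1 CPM in DCIS and 51.3 and 0 CPM in Tumor (log2 fold change -3.94 ± 0.77 (SE), adjusted p = 0.355). Snai1, a transcriptional repressor, was at 25.3 and 50.8 CPM in Prepuberty, 8.03 and 5.65 CPM in DCIS and 32.1 and 16.8 CPM in Tumor (log2 fold change -2.22 ± 0.51 (SE), adjusted p = 0.427). The chaperone Hspa1b was at 23.5 and 9.98 CPM in Prepuberty, 136 and 95.6 CPM in DCIS and 19.3 and 5.6 CPM in Tumor (log2 fold change 3.03 ± 0.53 (SE), adjusted p = 0.355). For each of these 3 genes both DCIS values lay outside the Prepuberty pair, as for 52.3% of all genes tested. The near-identical Hspa1a and Hspa1b may share reads, and Hspa1a was at 93.0 and 34.8 CPM in Prepuberty, 429 and 224 CPM in DCIS and 86.6 and 11.2 CPM in Tumor.

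Whether a state difference was of another size in the members than in the other Dcn-positive cells was tested as an interaction with the library as a block. No gene of 11710 passed for DCIS against Prepuberty (0%, with 230, or 1.96%, at an unadjusted p under 0.05 and 0 with DESeq2). None passed for Tumor against DCIS (0%, with 1431, or 12.2%, unadjusted and 65 with DESeq2). For Tumor against Prepuberty 1 gene passed, Gas7 (0.00854%, with 1419, or 12.1%, unadjusted and 74 with DESeq2). Without Tumor 1 the count was 1352 for Tumor against DCIS and 1377 for Tumor against Prepuberty, and without Tumor 2 it was 36 and 33. The other Dcn-positive cells of the tumours were unlike each other: Sfrp1 was at 698 and 16.7 CPM in those of Tumor 1 and Tumor 2, Igf1 at 543 and 46.3 CPM and Fbn1 at 908 and 109 CPM, while in the members these genes were at 764 and 1097 CPM, 940.3 and 1019 CPM and 1101 and 1377 CPM. Without cells that had T antigen, the interaction gave 0 calls for DCIS against Prepuberty, 0 for Tumor against DCIS and 1 for Tumor against Prepuberty, again Gas7 (difference of the log2 changes 3.48, adjusted p = 0.0331). The Gas7 call was lost in 7 other alternatives, with adjusted p from 0.0721 to 0.355: without any 1 of the 4 gland libraries, with only the 2 states, with at least 2 marker genes and after thinning. Gas7 (ENSMUSG00000033066, chr11:67455437-67688990), a growth arrest protein that binds actin, was at 70.7 and 55.7 CPM in Prepuberty, 94.6 and 65.0 CPM in DCIS and 215 and 419.8 CPM in Tumor in the members. In the other cells it was at 67.4 and 56.6 CPM in Prepuberty, 62.5 and 64.1 CPM in DCIS and 19 and 33.3 CPM in Tumor. The change from Prepuberty in the members alone also passed (log2 fold change 2.03 ± 0.42 (SE), adjusted p = 0.0232). Gas7 was higher in the Tumor members than in every gland and lower in the other Tumor cells than in every gland, and the difference of the 2 changes was 3.60 ± 0.35 (SE), adjusted p = 0.0356 against Prepuberty and 3.28 ± 0.35 (SE), adjusted p = 0.0854 against DCIS. For Tumor against DCIS the genes of smallest p were, beside Gas7, Igfbp7, Scg3 and Plpp3, whose change was more positive in the members, and Mpp6, Brinp3, Ruvbl1 and Trdc, whose change was more negative, and none passed.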

How the data were processed

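Per the labels and the study's methods, 6 libraries were made with a droplet single-cell RNA-seq kit that counts UMIs. The authors deposited a filtered matrix of UMI counts per gene and cell for each library, made with Cell Ranger 3.0.2 against the mm10 build according to the submitters' processing notes. The members and the gene lists were chosen with earlier results of these data known. Cells were filtered, the rule was applied and UMIs were summed per library and population (Python 3.11.15, scipy 1.17.1). No doublets were removed in the reported values, and calls from Scrublet (scanpy 1.11.5) served as an alternative. States were compared on the sums with edgeR 4.0.16 in R 4.3.3 (filterByExpr, TMM, quasi-likelihood F test, all 3 states in 1 fit, Benjamini-Hochberg adjustment over 9356 genes). The interaction was fitted on sums of members and other Dcn-positive cells with the library as a block, over 11710 genes. SEs are the absolute log2 fold change divided by the square root of the F statistic, so they rest on the spread of the whole fit. Levels are CPM of the sums, and within-library ratios use a pseudocount of 1 CPM. The fits were tested on simulated data. Gene coordinates come from GENCODE annotation matched by Ensembl ID.

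Named genes were the 8 largest changes in each direction among those that passed, did not overlap between states and had a mean of at least 20 CPM, or the 4 of smallest p where none passed. From each of 18 gene lists up to 4 members of smallest p were taken, and further members at 20 CPM or more. A few list members that enter the counts are not reported here by name. Alternatives were DESeq2 1.42.0 and its size factors, no filter on low counts, a replicate block, the 2 states alone, each library left out, a mitochondrial limit of 5%, 2 or 4 genes in the rule, cells without T antigen or doublets, thinning to 3000 UMIs, and other Dcn-positive cells without any gene of the rule's signature. Values with a 0 of n cells are bounded at 3 counts, and exact binomial intervals are at 95%.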

Additional observations from a re-analysis of the deposited data

Results flagged for a closer look

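Gas7 was flagged because its change from Prepuberty to Tumor differed between adventitial fibroblasts and the other Dcn-positive cells by 3.60 on the log2 scale (edgeR's quasi-likelihood interaction test, adjusted p = 0.0356). Among the alternatives the difference ranged from 1.83 to 3.77. The adjusted p was above 0.05 without Prepuberty 1 (0.232), Prepuberty 2 (0.219), DCIS 1 (0.139) or DCIS 2 (0.154), with only the libraries of the 2 states in the fit (0.192), with at least 2 marker genes in the rule (0.0721) and with cells thinned to 3000 UMIs (0.355). It was 9.07e-06 without Tumor 1 and 0.0056 without Tumor 2. In all 6 libraries Gas7 was measured in both populations, and both tumours showed the same direction. No explanation was tested.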

How the results depend on the processing

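For DCIS against Prepuberty, 0 genes passed in the members with edgeR, 24 with DESeq2, 18 with no filter on low counts, 7 with the replicate block and 0 to 5 with 1 library left out. For Tumor against DCIS the 699 calls became 307 after thinning and 120 (without DCIS 2) to 658 with 1 library left out. For Tumor against Prepuberty the 648 became 329 after thinning and 112 (without Prepuberty 2) to 662. Thinning lowers the number of UMIs by construction, and the number of genes tested fell from 9356 to 2734. The rule was applied after thinning, so the members differed too.

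The interaction for DCIS against Prepuberty gave 0 calls, 20 with no filter, 6 with only the 2 states and 0 to 13 with 1 library left out. For Tumor against DCIS it gave 0, 65 with DESeq2, 424 with no filter, 3 with at least 4 marker genes and 0 to 1352 with 1 library left out. For Tumor against Prepuberty it gave 1, 74 with DESeq2, 440 with no filter, 0 with only the 2 states, with at least 2 marker genes or after thinning, and 0 to 1377 with 1 library left out, the highest value in both cases without Tumor 1. The cause was not tested. The Scg3 interaction for Tumor against DCIS ranged from -7.09e-05 without Tumor 2 to 5.91 without Prepuberty 1, against 5.77 with all libraries.

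The share among Dcn-positive cells in Prepuberty was 11.4% with at least 4 marker genes, 41.3% with at least 2, 8.34% after thinning, 9.92% of all kept cells and 20.3% to 22.9% with 1 library left out. In DCIS it was 9.60%, 37.7%, 8.15%, 4.77% and 20.2% to 20.5%, with 20.8% at a mitochondrial limit of 5% and 20.6% without doublets. In Tumor it was 11.3% with at least 4 marker genes, 24.6% with at least 2, 17.7% after thinning, 0.708% of all kept cells and 9.01% to 30.9% with 1 library left out. Genes over 2-fold higher than in other Dcn-positive cells in every library numbered 28 against other cells without any signature gene (5 libraries, since Tumor 1 had only 6 such cells) and 8 to 16 with 1 library left out. Those over 2-fold lower numbered 45 in the same 5 libraries, 54 after thinning, 40 with at least 4 and 10 with at least 2 marker genes, and 29 to 41 with 1 library left out.

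Deviations from the state means of libraries with the same replicate number correlated at 0.286 between Prepuberty and DCIS. They correlated at -0.017 between Prepuberty and Tumor and 0.042 between DCIS and Tumor. Whether replicate numbers pair the libraries was not tested. Depth limits the Tumor sums: an empty sum was set at 3 UMIs over both libraries, and sums of 1 to 3 UMIs give ratios with wide counting intervals.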

Other observations

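Abcc9 and Kcnj8 encode the 2 subunits of a potassium channel of vascular smooth muscle and pericytes, and both were among the genes that rose most in the Tumor members against Prepuberty. Abcc9 was at 0.398 and 0.444 CPM in Prepuberty, 4.46 and 0 CPM in DCIS and 22.5 and 224 CPM in Tumor (log2 fold change 7.58 ± 1.19 (SE), adjusted p = 0.00889) and Kcnj8 at 1.79 and 0.887 CPM in Prepuberty, 7.14 and 0.807 CPM in DCIS and 89.9 and 157 CPM in Tumor (log2 fold change 6.15 ± 0.74 (SE), adjusted p = 0.00422). In the other Dcn-positive cells Kcnj8 was at 2.13 and 8.11 CPM in Prepuberty, 1.49 and 1.61 CPM in DCIS and 38 and 6.05 CPM in Tumor. The 6 pericyte markers summed to 286 CPM in the members of Tumor 1, nearly all of it Acta2, with Rgs5, Des and Myh11 at 0, and to 16.8 CPM in those of Tumor 2, with Des, Notch3, Myh11 and Acta2 at 0. The gland members had 13.3 to 20.4 CPM. A level of 3 UMIs is 9.63 CPM in Tumor 1 and 16.8 CPM in Tumor 2, so the zeros there say little.

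Trdc, the constant segment of the T cell receptor delta chain, was at 51.4 and 54.1 CPM in Prepuberty, 29.5 and 235 CPM in DCIS and 0 and 0 CPM in Tumor in the members, and at 7.64 and 9.63 CPM in Prepuberty, 13.4 and 23.7 CPM in DCIS and 0 and 184 CPM in Tumor in the other Dcn-positive cells. It was detected in 8.04% to 30.8% of the gland members, in 0% of the Tumor members and in 0% to 5.67% of the immune cells of the same libraries, while the T cell list of Cd3d, Cd3e, Cd3g, Trac and Cd2 summed to 0 to 3.11 CPM in the gland members. With 0 UMIs in both tumours it was at least 28.0-fold lower there than in DCIS, but this limit rests on DCIS 2 and was 4.81-fold without it, 10.2-fold without Tumor 1, and 17.8-fold without Tumor 2. Whether these UMIs come from Trdc itself or from an overlapping transcript was not tested.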
